A study of Schizosaccharomyces pombe with 6 samples.

Results

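Fission yeast (*Schizosaccharomyces pombe*) cells that overexpress the heat shock transcription factor Hsf1 were compared with wild type cells, both grown at 24°C in minimal medium without thiamine. In *nmt1:hsf1* cells the native promoter of *hsf1* had been replaced by the strong *nmt1* promoter. It is repressed by thiamine and active once thiamine is left out. The study sampled these cells many hours after thiamine was removed, when most of them grew at a single cell tip. The question was what a high level of Hsf1 does to the transcriptome without a change of temperature. RNA with poly(A) tails was sequenced from 1 library per condition, so every ratio below compares these 2 libraries, has no replicate check and carries no p-value. The series holds 6 libraries in all, and the others are from rich medium at 24°C: wild type, *mas5Δ* cells, *ssa2Δ* cells, and wild type shifted to 36°C for 15 min.

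Levels are FPKM, fragments divided by transcript length and by the mapped total, so that levels can be compared between genes. Members were the genes whose values averaged at least 10 FPKM over the libraries and were above 0 in each, 5426 of the 7008 genes listed. Another 42 genes with such a mean were listed at 0 in wild type and 17 in *nmt1:hsf1* cells, and no ratio was taken for them. The log2 ratio is that of *nmt1:hsf1* over wild type, and a gene is said to have risen or fallen where it differed by more than 2-fold. The table names its libraries only by number. Wild type was taken to be the first, the order in the other tables of the series, and every sign below rests on that order.

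Hsf1 binds DNA as a trimer, at heat shock elements built from alternating GAA and TTC units, and is the only member of its family in fission yeast. Under proteotoxic stress it drives genes of chaperones, the proteins that hold, refold or disaggregate other proteins. The Hsp70 chaperones among its targets are known to hold it inactive in unstressed cells. Fission yeast also has a core environmental stress response (CESR), a set of genes that changes in the same direction under many stresses and depends largely on the MAP kinase Sty1 and the transcription factor Atf1.

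The promoters of 6 members are shown. Those of *ssa1*, *ssa2*, *wis2*, *adh1* and *zas1* carry a heat shock element, and that of *hsp16* carries only a shorter form of it. The element was searched on both strands as GAANNTTCNNGAA or TTCNNGAANNTTC, which are 3 units each after a gap of 2 bases, in the 300 bases before each gene's start in the RefSeq annotation of ASM294v3. Capitals mark the element. The sequences of *ssa1* (chrI:2297965-2298054, minus strand), *ssa2* (chrIII:2056953-2057042, plus strand) and *wis2* (chrI:4931164-4931253, minus strand) are the 90 bases before the gene. That of *hsp16* (chrII:2660993-2661292, minus strand) is the whole window, which holds the 2-unit form GAANNTTC and no 3-unit form. Those of *adh1* (chrIII:1591042-1591091, plus strand) and *zas1* (chrII:180829-180878, minus strand) are the 50 bases around the element. In *adh1* the capitals cover 2 overlapping 3-unit elements.
ssa1: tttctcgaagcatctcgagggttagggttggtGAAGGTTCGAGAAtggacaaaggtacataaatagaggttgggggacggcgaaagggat
ssa2: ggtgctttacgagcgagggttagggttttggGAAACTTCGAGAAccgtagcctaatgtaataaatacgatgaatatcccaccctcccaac
wis2: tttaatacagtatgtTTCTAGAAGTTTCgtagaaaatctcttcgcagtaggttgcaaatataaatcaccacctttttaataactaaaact
hsp16: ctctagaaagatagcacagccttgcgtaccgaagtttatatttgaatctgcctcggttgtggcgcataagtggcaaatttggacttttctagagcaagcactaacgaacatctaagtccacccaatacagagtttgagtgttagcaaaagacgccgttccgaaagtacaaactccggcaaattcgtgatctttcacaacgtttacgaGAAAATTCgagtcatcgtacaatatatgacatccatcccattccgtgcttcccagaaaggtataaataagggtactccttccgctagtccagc
adh1: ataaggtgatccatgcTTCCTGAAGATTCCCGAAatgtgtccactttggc
zas1: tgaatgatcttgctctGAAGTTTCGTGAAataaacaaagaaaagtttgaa

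The elements of *ssa1*, *ssa2* and *wis2* start 58, 59 and 75 bases before the gene's start (positions -58, -59 and -75). The genes *ssa1* and *ssa2* also share the run cgagggttagggtt, 14 bases long, just before their elements at positions -75 and -77, and no other of the 5104 protein-coding genes has it in this window. The element of *zas1*, which encodes a transcription regulator, lay at -234, and those of *adh1*, which encodes an alcohol dehydrogenase, at -234 and -229.

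The 3-unit element was rare. It was found before 25 of 5104 protein-coding genes (0.490%), 23 of them members. These were 7 of the 1025 coding members that rose (0.683%), 3 of the 744 that fell (0.403%) and 13 of the 2927 within 2-fold (0.444%). The 7 were *ssa1*, *wis2*, *zas1*, *rrp6*, *vhc1*, *yip11* and SPBC1683.04, and the 3 were *adh1*, *mrpl8* and SPBC25B2.03. The log2 ratio of the 23 members had a median of 0.69. Chaperone genes with no 3-unit match in the window include *hsp16*, *hsp9*, *hsp20*, *hsp104*, *hsp90*, *cdc37* and *sti1*. The 2-unit form, GAANNTTC or TTCNNGAA, was common, with 19.5% of all coding genes, 22.2% of those that rose and 16.1% of those that fell. Of the 474 coding members that rose in heat-stressed wild type cells, 8 (1.69%) had the 3-unit and 25.5% the 2-unit form. A match is only a run of letters in a window and does not show binding.

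More genes rose than fell. Of the 5426 members, 1430 rose (26.4%) and 825 fell (15.2%), with a median log2 ratio of 0.07 and an SD of 1.54 across genes. More than 8-fold rises were seen for 268 members and more than 8-fold falls for 53. Since the minimum applies to the mean, a member under 10 FPKM in one library had to be above it in the other. There were 476 such members in wild type and 140 in *nmt1:hsf1* cells. The 15 largest coding rises included SPAC10F6.15, an uncharacterized gene at 0.381 and 77.0 FPKM, *mmf2*, a Pmf1-like gene by its annotation, at 7.21 and 810 FPKM, and SPAC9G1.14, also uncharacterized, at 1.77 and 72.6 FPKM. Each of these 3 shares its locus. Most members, 3706 of them, lie in a locus that holds at least 1 further listed gene. No source says that reads were counted by strand, so such values are uncertain. The 1720 members alone in their locus were nearly even, with 335 up (19.5%) and 317 down (18.4%).

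**Figure D1:**
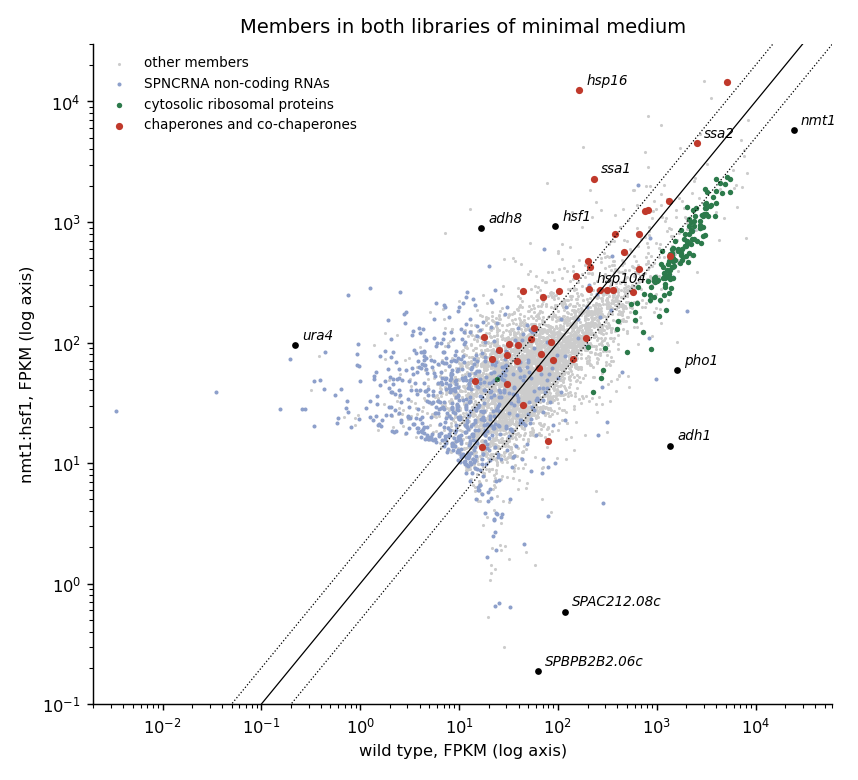
FPKM of each member in wild type (x axis) and *nmt1:hsf1* cells (y axis), both on log axes, with equality as a solid line and 2-fold differences as dotted lines. The lower left edge is set by the minimum mean of 10 FPKM. Cytosolic ribosomal protein genes (green) lie below the line, *hsp16* (165 and 12411 FPKM) and *ssa1* (232 and 2292 FPKM) above it.

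The scale of the libraries bears on the split. FPKM summed to 978415 over the listed genes in wild type and to 764347 in *nmt1:hsf1* cells, and dividing each library by its sum would add 0.36 to every log2 ratio. The members then split into 1847 up and 515 down, so that 78.2% of the genes past 2-fold were up instead of 63.4%. The depth of the libraries is unknown. FPKM are shares of a library, and fewer cells with a transcript and less of it per cell cannot be told apart.

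Log2 ratios moved with gene length. Across 4696 coding members Spearman's rho with gene length was 0.33, against 0.06 in the heat stress comparison, 0.13 in *mas5Δ* and 0.13 in *ssa2Δ* cells. The shortest sixth of coding members (145 to 1051 bp) had a median log2 ratio of -0.61 and 35.0% fell, while the longest sixth (3020 to 15232 bp) had a median of 0.69 and 40.4% rose. Without the 130 ribosomal protein genes it holds, the shortest sixth still had a median of -0.40. Whether RNA quality or fragment size differed between the libraries was not tested.

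**Figure D2:**
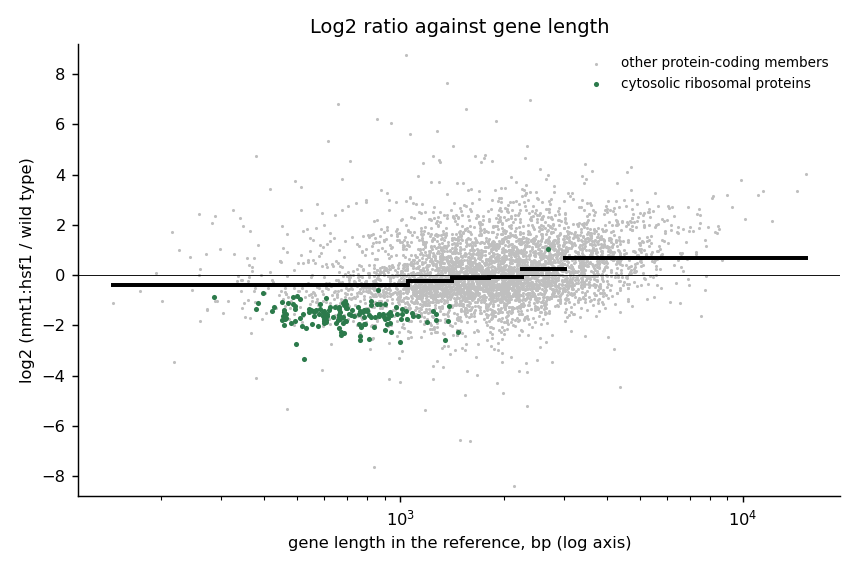
Log2 ratio of *nmt1:hsf1* over wild type (y axis) for each protein-coding member against its gene length in the reference (x axis, bp, log axis). Black bars are medians of sixths of the members by length, without ribosomal protein genes (green); the first bar is at -0.40 and the last at 0.69.

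Non-coding RNAs made up a large part of the rises. Of 666 members with an SPNCRNA identifier, the class of long non-coding RNAs in fission yeast, 384 rose (57.7%) and 70 fell (10.5%). Their median log2 ratio was 1.45. With a minimum mean of 1 FPKM, 575 of 1183 such RNAs rose and 190 fell, with a median of 0.89. An RNA very low in wild type was a member only if it was high in *nmt1:hsf1* cells, so these shares depend on the minimum. The 4705 protein-coding members had a median of -0.03, with 1027 up and 746 down. The rise was seen mainly in RNAs opposite a coding gene: 316 of 481 rose (65.7%, median 1.83), against 54 of 149 (36.2%, median 0.42) of those with no coding gene on the other strand. Since reads were not stated to be assigned by strand, an antisense RNA and its partner cannot be told apart. Of the 59 such RNAs alone in their locus, 19 rose and 14 fell, with a median of 0.16.

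The largest non-coding rise by ratio was SPNCRNA.1170, at 0.00338 FPKM in wild type against 27.3 FPKM in *nmt1:hsf1* cells, opposite *rxt3*. SPNCRNA.1273 had 0.747 and 246 FPKM and lay opposite *ski3*, itself at 5.57 and 24.7 FPKM. SPNCRNA.1677 had 1.25 and 283 FPKM and lay opposite *doa10*, which had 30.5 and 49.1 FPKM. SPNCRNA.1357 and SPNCRNA.1219 were also near 0 in wild type. The largest non-coding falls were SPNCRNA.74, with 290 and 4.63 FPKM, SPNCRNA.73, with 32.4 and 0.634 FPKM, SPNCRNA.1660, SPNCRNA.1605 and SPNCRNA.1306, the last alone in its locus at 80.0 and 3.65 FPKM.

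The targeted gene was high in the cells labelled for it. The level of *hsf1* (SPAC2E12.02) was 93.4 FPKM in wild type against 922 FPKM under the *nmt1* promoter, a 9.87-fold difference, although its locus holds other listed genes. The gene whose promoter was borrowed, *nmt1*, which makes the pyrimidine part of thiamine, was the reverse, with 24273 FPKM in wild type against 5778 FPKM (log2 ratio -2.07). The thiamine-regulated genes fell with it in part: 4 of 9 fell and none rose, with a median log2 ratio of -0.91. *thi2*, which makes the thiazole part, had 8136 and 2531 FPKM, and the acid phosphatase gene *pho4* had 859 and 355 FPKM. The regulator genes *thi1* (43.1 and 27.5 FPKM) and *thi5* (62.9 and 84.7 FPKM) were within 2-fold.

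Among genes used as strain markers, *ura4*, which encodes an enzyme of uridine monophosphate synthesis, had the largest coding rise of the comparison. It had 0.219 FPKM in wild type against 95.1 FPKM in *nmt1:hsf1* cells, and it was alone in its locus. In the rich medium libraries it was listed at 0 in wild type, with 116 FPKM in *mas5Δ* and 58.8 FPKM in *ssa2Δ* cells. The study's strain list has *nmt1:hsf1* strains with a deleted *ura4* and strains with a *ura4*+ reporter, and does not say which was sequenced. The other markers, *leu1* (592 and 285 FPKM) and *ade6* (132 and 48.5 FPKM), fell. Strain background and Hsf1 level cannot be told apart for such genes.

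Chaperone genes did not move as a block. The small heat shock protein gene *hsp16* and the Hsp70 gene *ssa1* rose strongly, several co-chaperones of Hsp90 rose by less, and the disaggregase gene *hsp104* and *hsp90* itself stayed within 2-fold. Genes of Hsp70 partners fell as well. The counts below are read beside the 26.4% of all members that rose and the 15.2% that fell. Ratios given for heat stress start from another wild type library, in rich medium and scaled apart, with *hsp104* at 43.2 FPKM and *ssa1* at 58.7 FPKM.

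Small heat shock proteins bind unfolding proteins and keep them from aggregating. *hsp16* (SPBC3E7.02c, chromosome II, 2660139 to 2660992) had 165 FPKM in wild type against 12411 FPKM in *nmt1:hsf1* cells, 75.2-fold, and was alone in its locus. It was the largest rise of the chaperone lists and had a log2 ratio of 6.23, beside 8.19 in heat-stressed wild type cells. *hsp9*, which encodes a small membrane-associated heat shock protein, was already at 5135 FPKM in wild type and reached 14515 FPKM. *hsp20* had 102 and 267 FPKM, and both *hsp9* and *hsp20* share their loci. *hsp104*, whose product pulls proteins out of aggregates, had 208 and 280 FPKM, a log2 ratio of 0.43, while its ratio in heat stress was 6.07. Thus 3 of the 4 genes rose and the transcript of *hsp104* did not pass 2-fold. The study itself reported far higher fluorescence of tagged Hsp104, and of GFP under *hsp104* regulatory sequences, when Hsf1 was overexpressed. Those are measures of protein, and their difference from the transcript level in this single pair of libraries was not tested.

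Of the 7 genes of cytosolic Hsp70, Hsp110 and their exchange factors, 3 rose and 3 fell. *ssa1*, the stress-inducible Hsp70, had 232 and 2292 FPKM, 9.90-fold, in a locus shared with other genes, and its log2 ratio was 3.31 beside 6.53 in heat stress. *ssa2*, the abundant Hsp70 of unstressed cells, was alone in its locus at 2548 and 4523 FPKM (log2 ratio 0.83). These are the genes whose promoters share the element and the run printed above. The exchange factor genes *fes1* (200 and 475 FPKM) and *bag101* (39.9 and 95.7 FPKM) rose, whereas *bag102* fell from 80.3 to 15.3 FPKM. The Hsp110 gene *pss1* fell from 576 to 265 FPKM and *sks2*, whose Hsp70 works at the ribosome, from 1351 to 527 FPKM; in heat stress the log2 ratio of *pss1* was 1.42 and that of *sks2* was -1.01. The list's median of 0.83 is that of *ssa2*. *fes1* and *bag101* also share their loci, and of the 3 genes alone in theirs none rose and 2 fell.

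Of the 8 genes of Hsp90 and its co-chaperones 4 rose and none fell, with a median log2 ratio of 0.89. *cdc37*, which delivers kinases to Hsp90, had the largest ratio at 44.9 and 266 FPKM (2.57). *cns1* (31.9 and 97.0 FPKM), *git7* (57.7 and 131 FPKM) and the cyclophilin gene *wis2* (381 and 799 FPKM) also rose. Of the 4 that rose only *cns1* was alone in its locus. Over the 4 genes of the list alone in their locus 1 rose, with a median of 0.50. *hsp90* had 1326 and 1503 FPKM, *wos2*, the p23 homologue, 756 and 1242 FPKM, *sti1*, the link between Hsp70 and Hsp90, 463 and 566 FPKM, and *aha1*, which stimulates the Hsp90 ATPase, 265 and 274 FPKM. These 4 had log2 ratios between 0.05 and 0.72, beside 1.98 for *hsp90*, 2.31 for *wos2*, 3.32 for *sti1* and 2.90 for *aha1* in heat stress. For the co-chaperones *cns1* and *git7* the larger ratio was the one here, 1.61 and 1.19, beside 0.05 and 0.59 in heat stress.

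J-domain proteins stimulate the ATPase of Hsp70, and 7 of 17 of their genes rose while none fell (median 0.56). *mug184* (17.7 and 111 FPKM), SPAC4G9.19 (25.3 and 86.5 FPKM) and the splicing factor *cwf23* (21.5 and 72.8 FPKM) had the largest ratios. *mas5*, the main cytosolic J-domain partner of Ssa2, had 315 and 275 FPKM.

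Folding genes of other compartments moved less. Of 7 mitochondrial chaperone genes, *hsp78*, the mitochondrial disaggregase, rose from 154 to 355 FPKM, and the others were within 2-fold, such as *mcp60* at 659 and 800 FPKM and *ssc1* at 668 and 404 FPKM. In the endoplasmic reticulum 3 of 13 folding genes rose, *pdi5* (32.4 and 122 FPKM), *ero12* and *pdi4*, while *bip1* had 646 and 406 FPKM. None of the 8 genes of the CCT chaperonin, which folds actin and tubulin, passed 2-fold, and 6 of them had log2 ratios below 0. Of 34 proteasome genes 1 rose, *pre1* at 342 and 695 FPKM, with a median log2 ratio of -0.16.

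**Figure D3:**
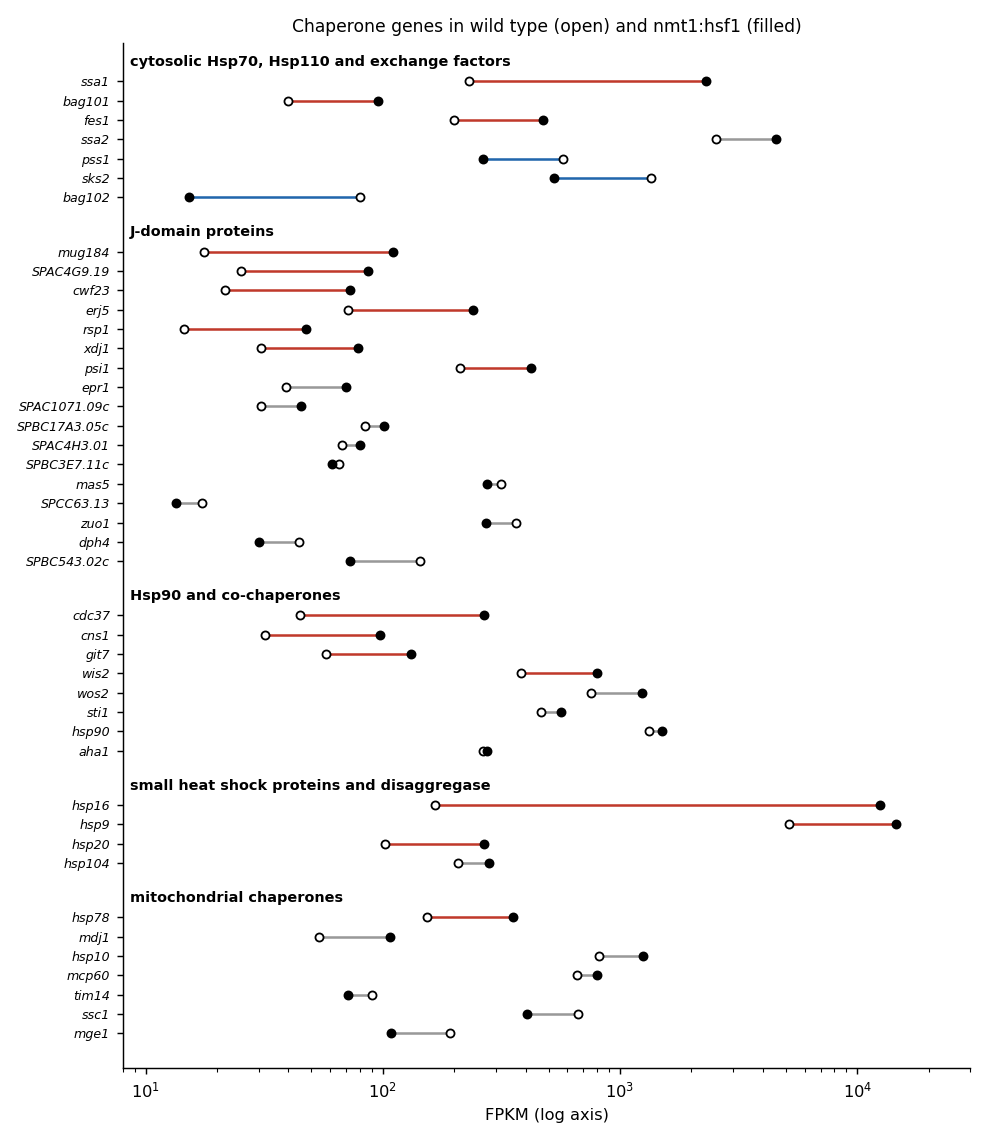
FPKM (x axis, log axis) of chaperone and co-chaperone genes in wild type (open circles) and *nmt1:hsf1* cells (filled circles), grouped by kind. Connecting lines are red for rises and blue for falls of more than 2-fold and grey otherwise. The longest line is that of *hsp16*, from 165 to 12411 FPKM, and the shortest ones include *aha1*, at 265 and 274 FPKM.

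The stress response lists, taken from the identifiers in the study's supplement, split by cluster. In CESR cluster 2, 28 of 50 genes rose (56.0%) and 3 fell, with a median log2 ratio of 1.22. In cluster 4, which holds *hsp16*, 9 of 18 rose and 1 fell (median 1.00), and in cluster 1, 8 of 23 rose and 2 fell (median 0.64). Cluster 3 did not share this, with 2 of 25 up and 3 down (median -0.09). In wild type cells in heat stress 47, 17, 22 and 24 genes of clusters 2, 4, 1 and 3 rose. Clusters 5 to 7 had more falls than rises. In cluster 5, 17 of 72 fell and 7 rose (median -0.43), in cluster 6, 9 of 14 fell and none rose (median -1.21), and in cluster 7, 3 of 5 fell and 1 rose (median -1.26), while 68, 13 and 2 of them fell in heat stress. With each library divided by its sum 5 genes of cluster 6 fell and 1 rose. Its falls include *ssn6*, at 24.0 and 10.2 FPKM, and *pho841*, a phosphate transporter gene at 71.1 and 32.9 FPKM, both alone in their loci and chosen after their values were seen. Of the 27 genes listed as specific to heat shock 11 rose and 2 fell, with a median of 0.72. Of the genes specific to osmotic stress 3 of 17 rose and 3 fell, of those specific to oxidative stress 17 of 62 rose and 14 fell (22.6%), and of those specific to cadmium 6 of 29 rose and 11 fell (37.9%), beside the 26.4% and 15.2% of all members.

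In cluster 2 the largest rises were SPAC4H3.08, a 3-hydroxyacyl-CoA dehydrogenase gene at 13.0 and 1275 FPKM, *cum1* at 1.79 and 119 FPKM, and *adh8*, an alcohol dehydrogenase gene at 16.6 and 885 FPKM. SPAC4H3.08 and *adh8* were alone in their loci, and their log2 ratios of 6.62 and 5.74 stood beside 1.43 and 1.00 in heat stress. A gene of the But2 family, SPAC27D7.09c, rose from 77.8 to 2104 FPKM, while another of that family, SPAC27D7.11c, fell from 1588 to 101 FPKM. Both rose in heat stress, with log2 ratios of 5.69 and 2.95. The fall of *wwm3*, from 343 to 48.4 FPKM, was also opposite to heat stress (4.20). In cluster 4, *cmt1*, a catechol O-methyltransferase gene, had 213 and 1833 FPKM, and *tpx1*, the main peroxiredoxin gene, 3578 and 10641 FPKM. In cluster 1 *grx1*, which encodes a glutaredoxin, had 1713 and 4096 FPKM and *rtc3* 808 and 2847 FPKM.

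The regulators of this response did not rise as a group: 4 of 17 stress kinase and transcription factor genes rose, *hsf1* among them, and 2 of 17 after centring on genes of like length. The others of the 4 were *wis1*, the MAP kinase kinase gene, at 13.9 and 37.6 FPKM, *pyp2*, which encodes the phosphatase of Sty1, at 39.1 and 91.8 FPKM, and *win1*, chosen after its value was seen. *sty1* had 193 and 169 FPKM and *atf1* 102 and 98.6 FPKM. Of 9 genes of trehalose and glycerol metabolism 2 rose and none fell. The genes that rose were *tps3*, a trehalose-phosphate synthase gene at 175 and 372 FPKM, and *gld1*, which encodes glycerol dehydrogenase, at 15.1 and 65.3 FPKM. *gpd1* (1337 and 886 FPKM), *tps1* (649 and 634 FPKM) and *ntp1* (177 and 103 FPKM) were within 2-fold, beside log2 ratios of 3.69, 3.87 and 3.94 in heat stress. Those heat ratios start from wild type in rich medium, at 432, 124 and 41.1 FPKM, on a scale set apart from the one here.

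Genes of meiosis and spore formation were among the largest rises. *rec24*, a meiotic recombination gene, had 0.321 and 40.7 FPKM, *mcp4* 2.35 and 116 FPKM, and the kinase gene *mug27* 0.684 and 24.1 FPKM. Each overlaps an antisense RNA that rose as well, so the strand of these reads is uncertain. *mek1*, a meiosis-specific kinase gene, was alone in its locus at 5.10 and 178 FPKM, a log2 ratio of 5.13 beside -0.01 in heat stress. All of these were under 10 FPKM in wild type and were members only because they were high in *nmt1:hsf1* cells. Over the *mug* and *meu* genes, named for their induction in meiosis, 41 of 96 rose (42.7%) and 14 fell, with a median of 0.69. Over those alone in their locus 10 of 34 rose. Of 139 such genes listed only these 96 were members, so the shares depend on the minimum. With a minimum mean of 1 FPKM 53 of 129 rose and 20 fell, with a median of 0.67. The regulators of entry into meiosis did not follow: *mei2* fell from 40.5 to 7.29 FPKM, and *ste11* had 34.1 and 58.8 FPKM. The list of mating and meiotic entry had 6 of 15 up and 2 down, with *ste20*, which encodes a subunit of TOR complex 2, at 28.8 and 496 FPKM and the pheromone transporter gene *mam1* at 14.8 and 89.9 FPKM.

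Many genes for the uptake of iron, copper and zinc rose. Of 15 such genes 9 rose (60.0%) and none fell, with a median log2 ratio of 1.26, and 6 of the 10 alone in their locus rose. Summed over the 15 genes the level was 912 FPKM in wild type against 1953 FPKM in *nmt1:hsf1* cells. The largest ratios started from low levels. *sib1*, which makes the siderophore ferrichrome, had 3.80 and 62.1 FPKM, *fio1*, the ferroxidase of iron uptake, 2.11 and 24.7 FPKM, and *frp2*, a ferric reductase, 2.72 and 27.4 FPKM. The iron-responsive repressor gene *php4* had 34.6 and 34.0 FPKM and the copper transporter gene *ctr5* 79.2 and 52.0 FPKM. In heat stress 3 of the 15 rose and 8 fell, with a median of -1.07.

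Since the study's question was cell polarity, genes of the Cdc42 circuit and the cell tips were described as a group. Of 23 genes 12 rose (52.2%) and 1 fell, with a median log2 ratio of 1.07. *shk2*, a kinase activated by Cdc42, had 6.90 and 191 FPKM over an antisense RNA that rose too. *for3*, the formin that nucleates actin cables (12.2 and 66.2 FPKM), *bud6*, which assists it (18.2 and 74.6 FPKM), and the tip marker gene *tea1* (17.8 and 52.1 FPKM) were alone in their loci. The kinase gene *pom1* had 25.3 and 62.7 FPKM and the scaffold gene *scd2* 21.5 and 45.0 FPKM. *cdc42* had 477 and 281 FPKM, its activators *scd1* 33.9 and 40.3 FPKM and *gef1* 54.2 and 37.1 FPKM, and *ras1* fell from 93.0 to 44.1 FPKM. These genes are long, with a median of 3076 bp, and after centring on genes of like length 5 of 23 rose and the median was 0.40. In heat stress 1 of the 23 rose.

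The genes of the cell wall moved both ways, 9 of 24 up and 4 down. *pck1*, a protein kinase C gene of the cell wall integrity pathway, had 35.5 and 508 FPKM, and the spore wall synthase genes *mok12* (6.61 and 55.7 FPKM) and *bgs2* (10.8 and 68.1 FPKM) rose. Each of these 3 shares its locus. *gas1*, which elongates wall glucan in growing cells, fell from 504 to 125 FPKM, *psu1* from 417 to 183 FPKM and *agn1*, which splits daughter cells, from 75.7 to 29.3 FPKM. Of 9 genes of cell separation 4 fell and none rose, and 7 fell after centring on genes of like length. They include *adg1* (123 and 21.4 FPKM) and *adg2* (178 and 34.3 FPKM). Of 30 autophagy genes 9 rose and 1 fell, led by *atg2* at 11.8 and 65.0 FPKM.

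**Figure D4:**
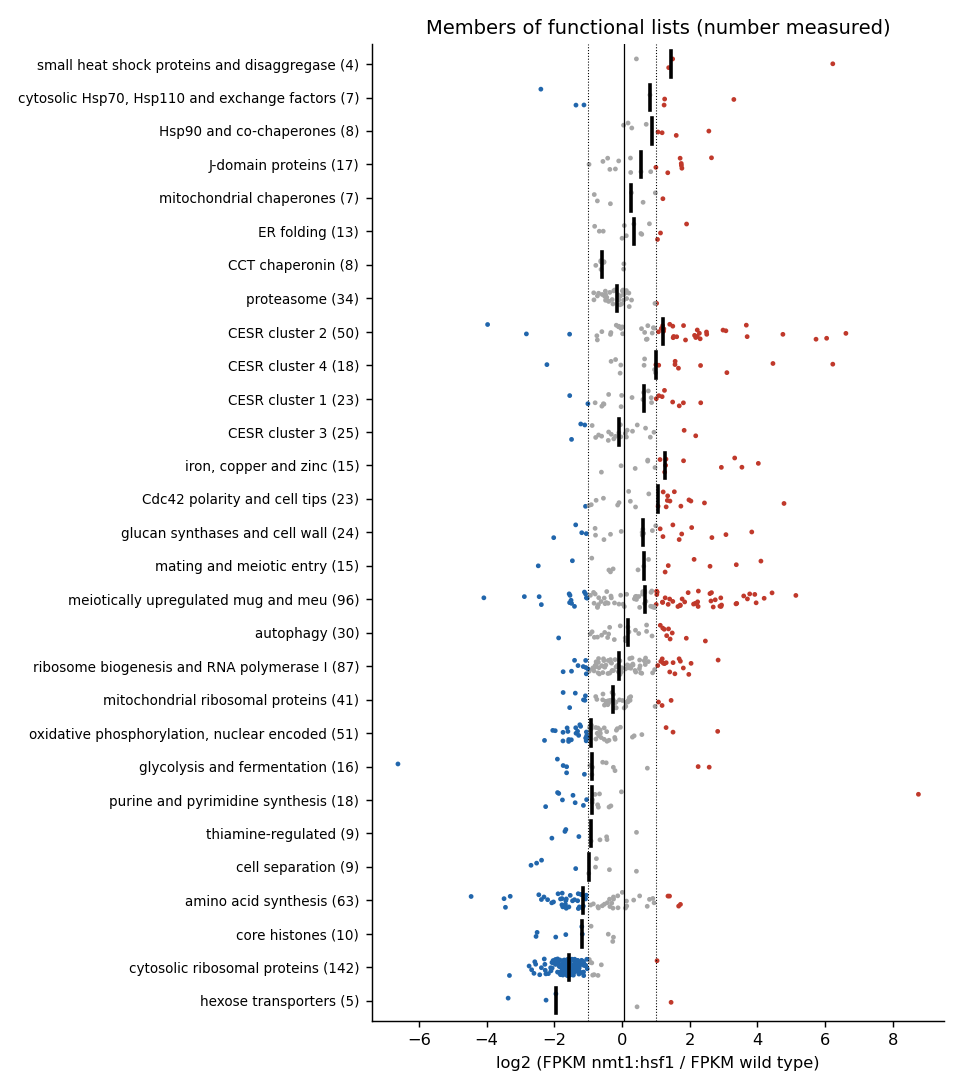
Log2 ratio of *nmt1:hsf1* over wild type (x axis) for each member of functional lists (y axis, number of members in brackets). Each point is a gene, red above 2-fold up and blue below 2-fold down, black bars are list medians, and the solid line is the median of all members at 0.07. Ribosomal protein genes lie around -1.56 and cluster 2 of the stress response around 1.22.

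The falls were led in number by ribosomal protein genes. Of 142 members that encode cytosolic ribosomal proteins 134 fell (94.4%) and 1 rose, with a median log2 ratio of -1.56, a fold of 2.95 down. Their summed level was 270485 FPKM in wild type against 98070 FPKM in *nmt1:hsf1* cells. Of the 81 alone in their locus 78 fell. The largest fall was *rpp203*, a gene of the acidic stalk protein P2, from 886 to 88.4 FPKM, then *rps2601* (1237 and 185 FPKM) and *rps403* (1055 and 166 FPKM). The exception, *rpl1603*, rose from 24.2 to 49.8 FPKM in a shared locus. Near-identical copies of these genes can exchange reads. In heat stress 15 of the 142 fell and the median was -0.65.

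These are among the shortest genes, with a median length of 680 bp. After dividing each library by its sum 106 of the 142 fell, and after centring on genes of like length 66 fell with a median of -0.94. The shortest sixth of coding members holds 130 of them among its 783 genes. Genes that build the ribosome did not fall with its proteins: over ribosome biogenesis and RNA polymerase I 15 of 87 rose and 9 fell (median -0.09), whereas 58 of the 87 fell in heat stress. Mitochondrial ribosomal proteins had 3 of 41 up and 6 down, or 3 down under either of these alternatives.

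Biosynthesis fell next. Of 63 genes of amino acid synthesis 34 fell (54.0%) and 4 rose, with a median log2 ratio of -1.14. With each library divided by its sum 24 fell (median -0.78), and after centring on genes of like length 34 fell. Of the 19 alone in their locus 8 fell, with a median of -0.71. *met26*, the last step of methionine synthesis, had 8041 and 740 FPKM. The lysine genes *lys1* (85.7 and 3.90 FPKM) and *lys2* (144 and 12.9 FPKM) and the chorismate synthase gene *aro2* (278 and 56.3 FPKM) also fell. The reads of *lys1* share their stretch with *prm1* on the other strand, which had 8.16 and 53.9 FPKM. The 4 that rose include *arg3* (69.1 and 229 FPKM), *met16* (123 and 393 FPKM) and *cys12* (49.2 and 131 FPKM). In purine and pyrimidine synthesis 8 of 18 fell, such as *ade2* (695 and 146 FPKM) and *ade10* (779 and 214 FPKM), and the gene that rose was *ura4*. In fatty acid and sterol synthesis 8 of 29 fell and 2 rose, with *erg25* at 654 and 98.1 FPKM.

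Energy metabolism fell in part. Of 51 nuclear genes of oxidative phosphorylation and its assembly 21 fell (41.2%) and 3 rose, with a median of -0.91, and 1 of them rose and none fell in heat stress. With each library divided by its sum 12 of the 51 fell, and after centring on genes of like length 15 fell with a median of -0.50. *rip1*, the Rieske protein gene of complex III, had 325 and 66.6 FPKM and *cox5* 499 and 121 FPKM. In glycolysis and fermentation 6 of 16 fell and 2 rose. *fba1* (7382 and 1967 FPKM) and *pyk1* (4026 and 1208 FPKM), which encode aldolase and pyruvate kinase, were alone in their loci. *tdh1* fell from 7589 to 3518 FPKM, while its paralog *gpd3* rose from 246 to 1469 FPKM.

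*adh1*, whose product makes ethanol, had 1368 FPKM in wild type against 13.9 FPKM in *nmt1:hsf1* cells, 98.4-fold lower, and the promoter printed above holds the elements. Its locus holds other listed genes. In heat stress its log2 ratio was -0.77. *adh8*, of the same enzyme class, rose over the same pair of libraries.

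Transporter genes moved both ways. Of 11 genes of amino acid permeases 4 rose and 2 fell, with *isp5* at 6.24 and 64.9 FPKM, *avt5* at 6.45 and 41.9 FPKM and *cat1* at 49.5 and 15.3 FPKM. Of 5 hexose transporter genes 3 fell and 1 rose: *ght8* from 340 to 33.0 FPKM, *ght2* from 310 to 65.5 FPKM and *ght5*, the high-affinity glucose carrier, from 328 to 84.7 FPKM, all alone in their loci, while *ght6* rose from 11.2 to 30.7 FPKM. Of 5 genes of phosphate acquisition 2 fell, the acid phosphatase gene *pho1* from 1609 to 58.8 FPKM and the transporter gene *pho84* from 510 to 53.2 FPKM. Among antioxidants *sod1* fell from 1070 to 219 FPKM while *sod2* of the mitochondrion rose from 306 to 686 FPKM. Of 10 core histone genes 6 fell and all had log2 ratios below 0, with *hhf1* at 1303 and 224 FPKM, *hht1* at 1080 and 190 FPKM and *htb1* at 1810 and 1500 FPKM. These genes are short, with a median of 828 bp, and 3 of 10 fell after centring on genes of like length and 4 of 10 with each library divided by its sum. Among genes of the G1/S factor MBF, 3 of 14 rose and 1 fell, *cdc22* at 187 and 86.7 FPKM, and 5 rose with each library divided by its sum. The actin gene *act1* had 2689 and 1588 FPKM.

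The largest coding falls by ratio lay near chromosome ends. SPBPB2B2.06c, a phosphatase gene, had 63.2 and 0.188 FPKM, and SPAC212.08c, which encodes a GPI-anchored protein, 118 and 0.585 FPKM. *aes1* had 241 and 5.81 FPKM and the proline transporter gene *put4* 47.5 and 1.83 FPKM. Distance to the end was examined after these values had been seen. Of the 32 coding members within 100 kb of an end of chromosome I or II in the reference 20 fell (62.5%) and 5 rose, with a median of -1.69, and 10 of them fell more than 8-fold. Between 100 and 200 kb 31 of 137 fell (22.6%), and farther in 563 of 3700 (15.2%). Of the 32, 20 were alone in their locus, and 10 fell in heat stress. Of the 15 largest coding falls 8 lay in this zone, among them *pho1*, SPBPB10D8.01, SPAC186.06 and SPAC977.12. The exceptions include *shu1*, which rose from 0.885 to 20.8 FPKM. The rest of the 15 were *adh1*, *lys1* and the genes *flx1*, *fra3*, *afg1*, *the4* and *mug98*, each sharing its locus. Families near chromosome ends have similar copies, and their values are uncertain for that reason. SPBPB2B2.06c, SPAC212.08c, *aes1* and *put4* were each under 10 FPKM in *nmt1:hsf1* cells, as were 108 of all 825 members that fell. Such genes were members only through wild type, so the shares by distance depend in part on the minimum.

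Heat stress in wild type cells was set beside Hsf1 overexpression. That comparison shares no library with this one, though medium, table scaling and time differ. Heat lasted 15 min, whereas *nmt1:hsf1* cells had been many hours without thiamine. There 11.9% of 5111 members rose and 8.94% fell. Across 5411 genes with a ratio in both, Pearson's r was 0.32 and Spearman's rho 0.29, as a description over genes, which are not replicates. Of the 646 genes that rose in heat 292 rose with Hsf1 overexpression (45.2%, where 26.2% of the 5411 did), and these were 20.6% of the 1420 genes up here. Of the 474 that fell in heat 152 fell here (32.1%, where 15.2% did), which were 18.5% of the 822 genes down here. The share was larger among genes with larger heat ratios. Of 112 genes up more than 8-fold in heat 75 rose (67.0%), with a median of 2.07. Of 63 up more than 16-fold 44 rose (69.8%). No minimum level was set in heat, and some of these genes were very low there, such as *mug27* at 0.00199 and 8.08 FPKM. A gene very low in wild type here was a member only if it was high in *nmt1:hsf1* cells, so these shares depend in part on the minimum.

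Some genes went opposite ways. There were 72 genes up here and down in heat, 5.07% of the 1420 up here, where 8.76% of the 5411 fell in heat. They include *uga1*, the GABA transaminase gene, at 1.37 and 96.2 FPKM here with a log2 ratio of -4.60 in heat. Another is *isp5*, an amino acid carrier gene, at 6.24 and 64.9 FPKM with -2.60 in heat. Their levels in heat were low, 6.76 and 0.278 FPKM for *uga1* and 6.83 and 1.12 FPKM for *isp5*. Both share their loci, and *uga1* overlaps *atg43* on the other strand over 1906 bp. Another 51 were down here and up in heat, 6.2% of the 822 down here, where 11.9% of the 5411 rose in heat. Among these were SPAC27D7.11c, *wwm3* and *aes1*. Both shares were thus below those over all genes. The difference between the responses was not tested.

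**Figure D5:**
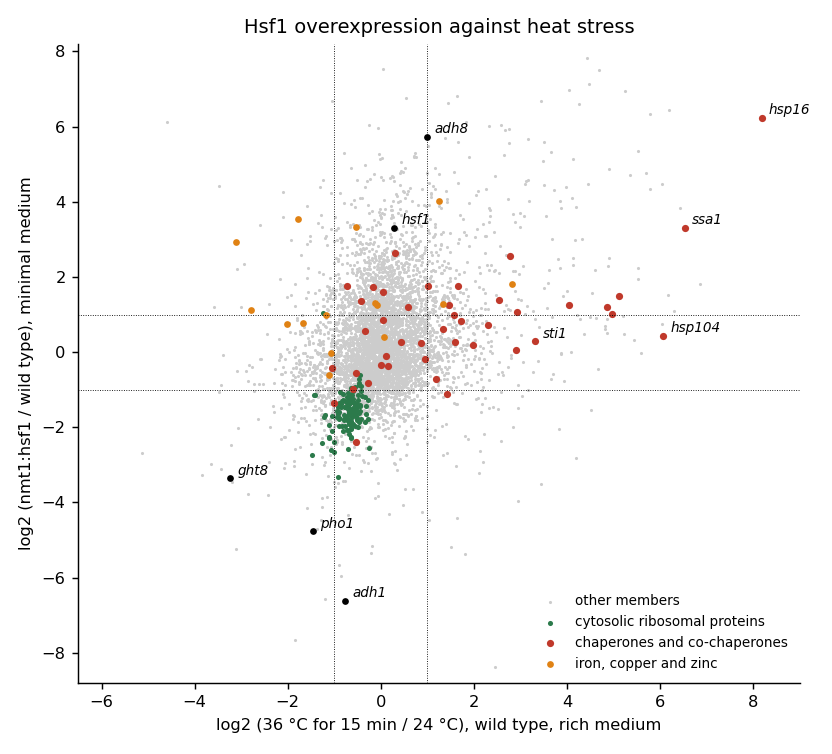
Log2 ratio of *nmt1:hsf1* over wild type in minimal medium (y axis) against that of wild type at 36°C for 15 min over 24°C in rich medium (x axis) for each gene with both. Dotted lines mark 2-fold, and 8 members lie outside the axes. *hsp16* (8.19, 6.23) and *ssa1* (6.53, 3.31) are high on both axes, *hsp104* (6.07, 0.43) and *sti1* (3.32, 0.29) on the heat axis, and metal uptake genes (orange) mostly lie high on the y axis and low on the x axis.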

How the data were processed

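The authors selected poly(A) RNA with oligo-dT, sequenced single-end reads of 50 bp, mapped them (TopHat) and obtained gene levels with Cuffdiff of the Cufflinks suite, run in Galaxy. The 4 deposited tables, each of 2 libraries, hold FPKM per gene that Cuffdiff scaled within each table, so levels were compared within a table only. Versions and the genome build are not given in the sources used here. Reads cannot be recovered from the values, so depth and counting error are unknown. The deposited columns of log2 fold changes, p-values and q-values hold the authors' own comparisons and were not used. No other per-sample column was left out (0).

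Samples were grouped by the labels. The minimal medium table does not name its columns, and wild type was taken to be the first, as in the other 3 tables. Log2 ratios were computed from FPKM without a pseudocount, over genes that averaged at least 10 FPKM and were above 0 in each library, with counts past 2-fold. With 1 library per group no test was run. Lists by function were matched by symbol, identifier or product in ASM294v3 (6843 of 7008 identifiers matched), and genes whose product contradicted a list's name were removed. CESR and stress-specific identifiers came from the study's supplement. The members and lists were chosen with earlier results of these data known. Coordinates and promoters are those of ASM294v3: of 1782 coding genes alone in their locus, 1769 have both ends of their locus within 1000 bp of the reference gene.

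Genes named were drawn from the 15 largest coding and 5 largest non-coding rises and falls, *hsf1*, *nmt1*, genes the paper names, and up to 3 rises and 3 falls per list, with all members of lists under 12 and the members a list's name turns on. Not every gene that met this rule is reported here. Those near chromosome ends, those with the promoter element and partners on the other strand were singled out after values were seen. Alternatives were pseudocounts, scalings, minimum levels, thresholds and subsets of genes. Centring within bins of gene length and the 500-base promoter window were chosen with the data in view, after seeing them. The ratio, the minimum level, the 2-fold call and a correlation were first tested on simulated data, and the other steps were not. Python 3.11.15, numpy 2.4.6, pandas 2.3.3, scipy 1.17.1 and matplotlib 3.10.9 were used.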

Additional observations from a re-analysis of the deposited data

Results flagged for a closer look

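Among the largest rises and falls and the genes the paper names, 5 genes that averaged at least 10 FPKM in both tables passed 2-fold in *nmt1:hsf1* cells and passed it the other way in heat-stressed wild type cells, in the single pair of libraries of each comparison. *aes1* had a log2 ratio of -5.37 here and 1.82 in heat, SPNCRNA.1660 of -5.20 and 1.51, and *lys1* of -4.46 and 1.05. *urg1*, a uracil-regulated gene, had 1.23 here and -1.84 in heat, and the MAP kinase kinase gene *wis1* had 1.43 and -1.14. The differences were not tested, and medium, scaling and time differ between the comparisons. *aes1*, *urg1* and *wis1* were alone in their loci, while SPNCRNA.1660 and *lys1* share theirs.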

How the results depend on the processing

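No paired analysis was possible because each group held 1 library, and for the same reason no replicate could be left out. The count of genes up moved from 1430 to 596 with a mean of at least 50 FPKM, 335 for genes alone in their locus, 622 at 4-fold and 930 for coding members centred within bins of gene length. The count of genes down moved from 825 to 515 with each library divided by its sum, 317 for genes alone in their locus, 1448 at 1.5-fold and 175 at 4-fold. The other settings run, pseudocounts, centring on the median and status or identifier filters among them, kept both counts within 1.5 times.

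Of 48 list medians, 1 changed sign past 2-fold: CESR cluster 7 went from -1.26 to 1.01 over its 2 genes alone in their locus. Restriction to such genes also moved the medians of ER folding to -0.55, MBF targets to -0.77, amino acid permeases to 0.0069, autophagy to 0.83, core histones to -1.85, Hsp70 and its exchange factors to -1.12, cell wall genes to -0.79, non-coding RNAs to 0.16, small heat shock proteins to 3.33, and trehalose and glycerol to -0.59. Centring within length bins moved Cdc42 polarity genes to 0.40, cytosolic ribosomal proteins to -0.94 and cell wall genes to -0.15. A minimum of 1 FPKM moved mitochondrially encoded genes to 0.36. A 500-base promoter window held the 3-unit element before 11 genes that rose and 5 that fell. Of 316 named genes 25 moved by over 1.5-fold, all with a pseudocount of 1 FPKM, and none past 2-fold changed sign. Both correlations with heat stress kept within 0.1 under all 4 alternatives. The cause of these shifts was not tested.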
